A study of Mus musculus with 6 samples.

Results

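The proteasome genes of mouse thymocytes were taken as the protein-coding rows of the count table whose symbol begins with Psm, a letter from a to g and a digit. The rule found 50 genes among the 55536 rows, and all 50 had enough counts to be tested, among 18690 tested genes. Messenger RNA was counted per gene in 6 libraries of thymocytes, which are T cells in development, 1 library per mouse and with no treatment. Of these, 3 came from mice labelled Il3ra-/-, named for loss of the interleukin-3 receptor alpha gene, and 3 from wildtype mice labelled Il3ra+/+. Not given in the sources used are the age, strain and sex of the mice and the deleted part of the allele. Whole libraries held 55747682 to 82684219 counts. Levels are given as CPM (counts relative to library size, with TMM scaling) and a fold is the labelled knockout over wildtype.

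The proteasome is the protease that degrades ubiquitin-marked proteins and supplies many of the peptides shown on MHC class I. Its core particle is a stack of alpha and beta rings in which 3 beta subunits cut: Psmb6 (caspase-like), Psmb7 (trypsin-like) and Psmb5 (chymotrypsin-like). Immune cells and interferon-treated cells replace them with Psmb9, Psmb10 and Psmb8 to form the immunoproteasome. Cortical epithelial cells of the thymus use Psmb11 in the place of Psmb5, and mice without Psmb11 select few CD8 T cells. Regulatory caps of ATPases (Psmc) and non-ATPase subunits (Psmd) unfold substrates, while Psme genes encode other activators, Psmf1 an inhibitor and Psmg genes assembly chaperones.

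The labels were only partly checked by the counts. Il3ra itself had 481, 673 and 514 counts in the labelled knockout and 465, 376 and 399 counts in wildtype, so it was not lower where it is labelled deleted. The counts cover the whole gene and do not check a deletion of part of it, so every direction below is that of the labels. Cd3e, Cd4, Cd8a and Rag1 were among 11 of 11 thymocyte markers above 3 counts in every library, Rag1 at 2808 to 2934 CPM in the labelled knockout and 3018 to 4022 CPM in wildtype. Replicate 1 of each genotype had high Xist counts (128236 in the labelled knockout and 88078 in wildtype) against 8 to 57 in the other 4 libraries. The Y-chromosome genes Kdm5d, Eif2s3y, Uty and Ddx3y had 0 to 5 counts in replicate 1 of each genotype and 1724 to 11226 in the other 4 libraries. By these genes replicate 1 was female and the other libraries male in each genotype. The main counts are also given without the replicate 1 pair.

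Promoter sequences of 42 of the 50 genes are held in the RefSeq table on GRCm38.p6, each running from 250 bases before the start to 50 bases after it. They are shown for the contrast between the constitutive Psmb5, the immune Psmb8 and Psmb9 and the thymus Psmb11, and for Psmc1, a cap ATPase and 1 of the 5 genes of smallest p below. Capitals mark matches on either strand to any of 12 motifs searched. The lines follow the direction of the gene. Psmb5 lies at chr14:54617946-54618245 on the minus strand, Psmb8 at chr17:34197945-34198244 on the plus strand, Psmb9 at chr17:34187281-34187580 on the minus strand, Psmb11 at chr14:54625060-54625359 on the plus strand and Psmc1 at chr12:100109952-100110251 on the plus strand.
Psmb5: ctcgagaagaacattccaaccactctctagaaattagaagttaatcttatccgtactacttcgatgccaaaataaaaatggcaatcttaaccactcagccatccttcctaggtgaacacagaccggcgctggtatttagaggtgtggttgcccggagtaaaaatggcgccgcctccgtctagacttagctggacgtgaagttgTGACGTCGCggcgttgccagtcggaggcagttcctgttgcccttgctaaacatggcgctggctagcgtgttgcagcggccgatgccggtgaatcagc
Psmb8: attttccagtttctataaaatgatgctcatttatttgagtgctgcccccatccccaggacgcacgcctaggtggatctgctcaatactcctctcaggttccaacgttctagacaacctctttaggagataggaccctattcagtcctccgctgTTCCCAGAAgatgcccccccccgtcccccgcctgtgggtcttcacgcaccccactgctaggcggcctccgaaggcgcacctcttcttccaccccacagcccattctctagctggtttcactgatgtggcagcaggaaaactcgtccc
Psmb9: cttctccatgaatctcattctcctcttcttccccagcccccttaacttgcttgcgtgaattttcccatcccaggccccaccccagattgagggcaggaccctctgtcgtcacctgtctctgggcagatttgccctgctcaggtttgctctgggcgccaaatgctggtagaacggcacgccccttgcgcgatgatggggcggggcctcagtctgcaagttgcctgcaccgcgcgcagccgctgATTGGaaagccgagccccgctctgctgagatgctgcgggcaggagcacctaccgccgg
Psmb11: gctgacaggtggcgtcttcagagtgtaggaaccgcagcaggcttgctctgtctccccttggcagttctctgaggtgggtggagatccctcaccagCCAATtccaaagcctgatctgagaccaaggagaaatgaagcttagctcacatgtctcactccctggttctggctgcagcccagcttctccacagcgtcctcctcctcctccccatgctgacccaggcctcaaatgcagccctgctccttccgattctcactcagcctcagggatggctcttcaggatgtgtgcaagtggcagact
Psmc1: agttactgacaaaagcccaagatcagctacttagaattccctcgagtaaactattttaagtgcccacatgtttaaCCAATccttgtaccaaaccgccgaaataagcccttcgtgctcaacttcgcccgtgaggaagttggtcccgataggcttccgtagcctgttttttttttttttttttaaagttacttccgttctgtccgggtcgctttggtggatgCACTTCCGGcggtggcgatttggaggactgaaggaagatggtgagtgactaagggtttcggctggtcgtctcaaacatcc

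The capitals in Psmb5 mark a match to TGACNNNGC, the core of the antioxidant response element that Nfe2l1 and Nfe2l2 bind, at base -47 relative to the start. In Psmb8 they mark TTCNNNGAA, the form of a gamma-activated site that STAT factors bind, at -97. The capitals in Psmb9 and Psmb11 mark CCAAT boxes, at -8 on the opposite strand and at -155. All these starts are those of RefSeq. The gene spans used for lengths and overlaps begin before the windows of Psmb8 and Psmb11, at bases 34197721 and 54621433. Psmc1 held a CCAAT box at -175 and an overlapping pair of ETS matches, GGAAGTG and CCGGAA, both on the opposite strand, at -30 and -27. CCGGAA stood in 22 of 45 proteasome promoters (48.9%), in 14.9% of all 32851 promoters and in 25.7% of the 14141 promoters of tested genes. The interferon-stimulated element, GAAA and GAAA parted by 2 bases, stood in 5 of 45 (11.1%, against 3.44% of all). These were the promoters of Psme1, Psmb3, Psmd4, Psmd9 and Psmg4, and not those of Psmb8 or Psmb9. TGACNNNGC stood in 6 of 45 (13.3%, against 12.4%), CCAAT in 15 (33.3%, against 37.4%), TTCNNNGAA in 3 (6.67%, against 8.30%), GGAAGTG in 8 (17.8%, against 11%) and TGACTCA, which can overlap TGACNNNGC, in 1 (2.22%, against 5.202%). GCATGCGC stood in 3 (6.67%, against 2.71%) and the same site with GC before it, a fuller match for nuclear respiratory factor 1, in 2 (4.44%, against 0.971%). An NF-kB site (GGGAC joined to TTTCC), the cyclic AMP element TGACGTCA and an X box stood in 0 of 45. Their shares of all promoters were 0.155%, 1.79% and 0.685%. The X box was searched as GTTGC and GNAAC parted by 3 bases. In promoters of tested genes the shares were 14.3% for TGACNNNGC, 37.4% for CCAAT, 7.1% for TTCNNNGAA, 14.2% for GGAAGTG and 3.91% for TGACTCA. They were 4.79% for GCATGCGC, 1.89% for its fuller form and 3.26% for the interferon-stimulated element. The NF-kB site, cyclic AMP element and X box stood in 0.205%, 2.85% and 0.587% of them. These are matches of letters in a short window and not measured binding.

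Transcript levels of the 50 proteasome genes did not pass the test between the genotypes. By edgeR's quasi-likelihood test 0 of 50 had a Benjamini-Hochberg adjusted p under 0.05, against 0.091% of all tested genes, and the smallest adjusted p was 0.246. DESeq2 and limma-voom also called 0, against 4.54% and 0.0963% of all genes they gave an adjusted p, and DESeq2 gave none to Psma8 and Psmb11. At an unadjusted p under 0.05, 5 of 50 (10%) were higher in the labelled knockout and 0 lower, where 8.01% of all tested genes were higher and 6.6% lower, so this count was near the background. DESeq2 and limma-voom each gave 4 proteasome genes at that unadjusted level, all higher, against 7.72% and 7.77% of all genes. In 8 of 50 (16%) all 3 labelled-knockout libraries lay above all wildtype libraries, where 10.9% of all tested genes did. In none of the 50 did they all lie below, where 9.38% of all tested genes did. The fit put 43 of 50 (86.0%) higher in the labelled knockout by any amount, against 51.2% of all tested genes, and 42 to 44 under the other scalings and tools. It put 37 higher and 13 lower without labelled-knockout replicate 3, and 47 higher and 3 lower without replicate 1 of each genotype. The median fold was 1.08 over the 50 genes and 1.01 over all tested genes. The p-values measure the spread between mice, 3 to a genotype. In bulk libraries, fewer cells of a type and less RNA per cell cannot be told apart.

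The 48 genes averaging at least 2 CPM had folds of 0.929 (Psmd4) to 1.22 (Psmd1), and the 95% intervals of all 48 lay between 0.799 and 1.56. The median standard error of the log2 fold was 0.10 for the proteasome genes and 0.17 for all tested genes. The 2 genes below 2 CPM, Psma8 and Psmb11, had intervals of 0.895 to 5.37 and 0.755 to 3.11, the widest of the 50.

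**Figure D1:**
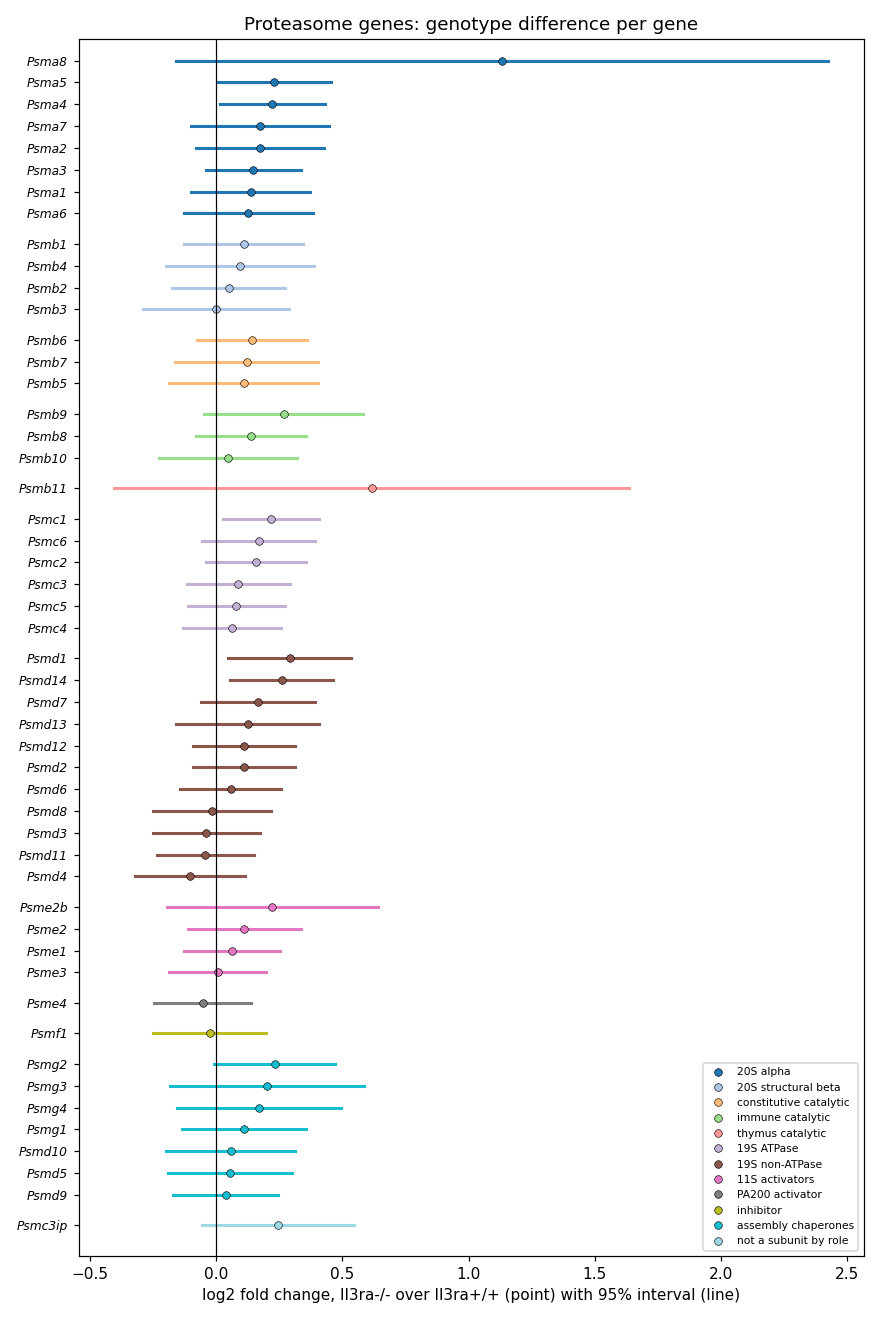
Log2 fold change of each of the 50 proteasome genes, labelled Il3ra-/- over Il3ra+/+, on the horizontal axis. Points are edgeR estimates, lines are 95% intervals, and colours and blocks give the role of the gene. Most points lie just right of 0, with 43 of 50 fitted higher, and the widest intervals belong to Psma8 and Psmb11, the genes of fewest counts.

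The 5 genes with an unadjusted p under 0.05 were subunits of the cap and of the alpha rings. Psmd14, the cap enzyme that removes ubiquitin chains, had 79.5, 76.4 and 85.3 CPM in the labelled knockout, against 68.1, 63.0 and 70.6 CPM in wildtype (fold 1.20, edgeR adjusted p = 0.246). Psmd1, a large scaffold of the cap, had 80.8, 81.5 and 97.5 CPM in the labelled knockout, against 75.5, 62.6 and 74.4 CPM in wildtype (fold 1.22, edgeR adjusted p = 0.270). In both genes the genotypes did not overlap, and for Psmd1 the widest gap was between labelled-knockout replicate 3 and wildtype replicate 2. Psmc1, a cap ATPase whose tail opens the gate of the core, had 113, 111 and 116 CPM in the labelled knockout, against 101, 91.1 and 102 CPM in wildtype (fold 1.16, edgeR adjusted p = 0.290). The alpha-ring gene Psma4 had 90.5, 86.8 and 93.3 CPM in the labelled knockout, against 81.0, 69.4 and 81.5 CPM in wildtype (fold 1.17, edgeR adjusted p = 0.313). For Psmc1 and Psma4 the genotypes did not overlap either. Psma5, another alpha subunit, had 53.2, 57.3 and 63.7 CPM in the labelled knockout, against 48.9, 46.2 and 53.8 CPM in wildtype, where wildtype replicate 3 lay above labelled-knockout replicate 1 (fold 1.17, edgeR adjusted p = 0.340). Without labelled-knockout replicate 3, or without wildtype replicate 2, 0 of 50 had an unadjusted p under 0.05, against 5.14% and 4.39% of all tested genes in the higher direction. Without wildtype replicate 1 there were 10, all higher, against 9.14%.

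The constitutive catalytic subunits were each fitted slightly higher and overlapped between the genotypes. Psmb5 had 34.4, 41.4 and 48.2 CPM in the labelled knockout, against 43.9, 35.4 and 35.8 CPM in wildtype (fold 1.08, 95% interval 0.877 to 1.32). Psmb6 had 99.4, 108 and 116 CPM in the labelled knockout, against 105, 88.5 and 99.7 CPM in wildtype (fold 1.10, 0.947 to 1.28). Psmb7 had 43.3, 43.0 and 53.9 CPM in the labelled knockout, against 49.7, 37.7 and 41.6 CPM in wildtype (fold 1.09, 0.893 to 1.32). Labelled-knockout replicate 3 was the highest and wildtype replicate 2 or labelled-knockout replicate 1 the lowest library for each of the 3.

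The immune subunits also overlapped between the genotypes. Psmb8, which replaces Psmb5, had 152, 159.8 and 169 CPM in the labelled knockout, against 162, 133 and 142 CPM in wildtype (fold 1.10, 0.946 to 1.28). Psmb10, which replaces Psmb7, had 33.9, 41.8 and 41.5 CPM in the labelled knockout, against 43.7, 33.7 and 36.0 CPM in wildtype (fold 1.03, 0.854 to 1.249). Psmb9, which replaces Psmb6, had 46.9, 51.1 and 62.1 CPM in the labelled knockout, against 53.7, 39.5 and 39.8 CPM in wildtype (fold 1.20, 0.967 to 1.498). For Psmb9 wildtype replicate 1 lay above 2 labelled-knockout libraries, and the difference did not pass (edgeR adjusted p = 0.421).

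Psmb9 was the 1 proteasome gene called in any setting tried. Without replicate 1 of each genotype, the pair high in Xist and read as female above, its fold was 1.43 (edgeR adjusted p = 0.0444). That fit called 3.98% of 19127 tested genes. Over all alternatives its adjusted p ran from 0.0444 to 0.860, and leaving out single libraries gave log2 folds of 0.14 to 0.43. In that fit of 2 against 2 libraries 24 of 50 proteasome genes had an unadjusted p under 0.05, all higher, against 14.2% of all tested genes, and the 24 included all 7 catalytic subunits. Psmb9 shares its start region with Tap1, the peptide transporter on the opposite strand, whose annotated span overlaps it. Tap1 had 125, 142 and 139.9 CPM in the labelled knockout, against 150.3, 125 and 124 CPM in wildtype, so it overlapped between the genotypes. Antigen-presenting cells are known to carry immunoproteasomes, and the summed level of their markers was lowest in labelled-knockout replicate 1 and highest in labelled-knockout replicate 3 for each of 3 cell types. Of the 18 single markers 15 were lowest in labelled-knockout replicate 1 and 11 highest in labelled-knockout replicate 3. The shares of all tested genes lowest or highest in these libraries were not counted. Psmb9 itself was highest in labelled-knockout replicate 3 but lowest in wildtype replicate 2, at 39.5 CPM against 46.9 CPM in labelled-knockout replicate 1. The 7 macrophage markers summed to 38.0, 66.2 and 77.7 CPM in the labelled knockout, against 67.3, 45.1 and 46.8 CPM in wildtype. The 6 dendritic cell markers summed to 12.4, 28.7 and 47.7 CPM in the labelled knockout, against 18.6, 20.4 and 19.2 CPM in wildtype, with Siglech alone at 21.9 CPM in labelled-knockout replicate 3. The 5 B cell markers summed to 26.2, 45.1 and 53.6 CPM in the labelled knockout, against 45.9, 38.2 and 44.6 CPM in wildtype. Each of these markers was above 3 counts in every library, and their part in the level of Psmb9 was not tested.

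**Figure D2:**
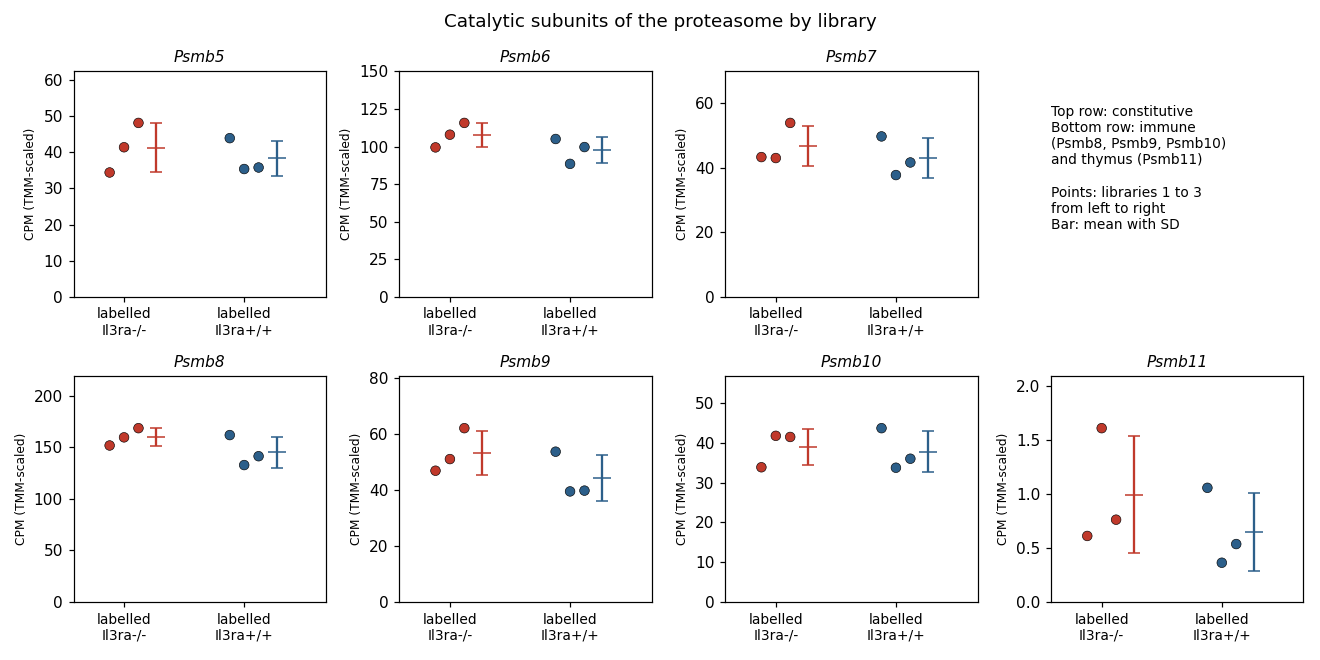
Level of the 7 catalytic subunits in CPM, on axes that start at 0, with labelled Il3ra-/- libraries (red) left of labelled Il3ra+/+ libraries (blue). Points are single libraries and bars the mean with SD (n = 3 each). The genotypes overlap in all 7 panels, and Psmb11 lies near 1 CPM where the others lie between 33.7 and 169 CPM.

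Psmb11, the thymus subunit, had the fewest counts of the catalytic genes. It had 37, 135 and 53 counts in the labelled knockout, against 63, 21 and 35 counts in wildtype, which gave 0.611, 1.61 and 0.762 CPM in the labelled knockout and 1.06, 0.363 and 0.536 CPM in wildtype. The highest library was labelled-knockout replicate 2 and the lowest wildtype replicate 2, and the groups overlapped (fold 1.53, edgeR adjusted p = 0.572). Leaving out single libraries gave log2 folds of 0.08 to 1.15, and leaving out replicate 1 of each genotype a fold of 2.63 (edgeR adjusted p = 0.0795). Prss16, a protease of cortical thymic epithelium, had 0.545, 1.13 and 0.862 CPM in the labelled knockout, against 1.07, 0.710 and 0.935 CPM in wildtype. Tbata, another gene of these cells, had 1.47, 4.49 and 2.63 CPM in the labelled knockout, against 2.97, 1.35 and 1.70 CPM in wildtype. Labelled-knockout replicate 2 and wildtype replicate 1 were the highest 2 libraries for Psmb11 and for 4 of the 13 epithelial markers, Prss16, Tbata, Aire and Foxn1, and not for the other 9. Krt8, a keratin, had 0.595, 1.86 and 1.81 CPM in the labelled knockout, against 1.68, 0.536 and 0.858 CPM in wildtype. Foxn1, the master regulator of thymic epithelium, was at 0 in labelled-knockout replicate 1 and reached at most 0.268 CPM, in wildtype replicate 1. Of the 13 epithelial markers 10 were above 3 counts in every library, and their summed level was 125 to 141 CPM in the labelled knockout and 124 to 133 CPM in wildtype. Ctsl and Ly75, which other cells also express, made up most of that sum. The part of epithelial RNA in the level of Psmb11 was not tested.

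**Figure D3:**
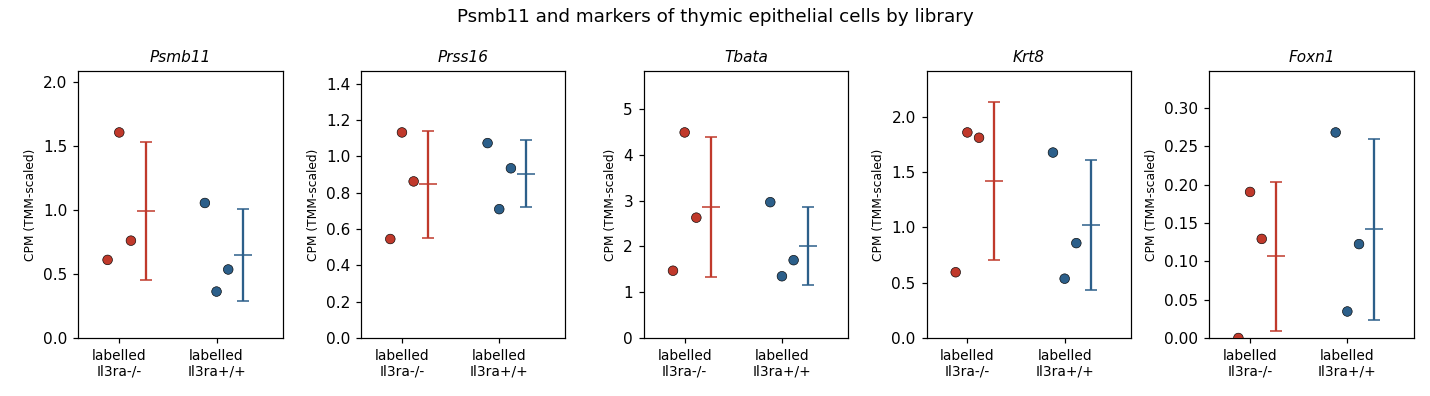
Psmb11 and 4 markers of thymic epithelial cells in CPM, on axes that start at 0, labelled Il3ra-/- (red) left of labelled Il3ra+/+ (blue). Points are libraries 1 to 3 from left to right and bars the mean with SD (n = 3 each). Labelled-knockout replicate 2 and wildtype replicate 1 are the highest 2 libraries for Psmb11, Prss16, Tbata and Foxn1 and not for Krt8, and were so for 4 of the 13 epithelial markers in all.

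Ratios within a library, which do not depend on scaling, gave no difference in the make-up of the catalytic core past the test. The log2 ratio of Psmb8 to Psmb5 counts was 2.14, 1.95 and 1.81 in the labelled knockout, against 1.88, 1.91 and 1.98 in wildtype. That of Psmb9 to Psmb6 was -1.08, -1.08 and -0.90 in the labelled knockout, against -0.97, -1.16 and -1.32 in wildtype. That of Psmb10 to Psmb7 was -0.35, -0.04 and -0.38 in the labelled knockout, against -0.19, -0.16 and -0.21 in wildtype. The wildtype values of Psmb10 to Psmb7 lay closer together than those of the labelled knockout, with SDs of 0.19 in the labelled knockout and 0.02 in wildtype. Psmb11 to Psmb5 was -5.80, -4.68 and -5.97 in the labelled knockout, against -5.37, -6.57 and -6.04 in wildtype. The differences were 0.04, 0.13, -0.07 and 0.51 in that order. Leaving out single libraries gave -0.046 to 0.12 for Psmb8 to Psmb5, 0.045 to 0.22 for Psmb9 to Psmb6, -0.18 to -0.013 for Psmb10 to Psmb7 and 0.11 to 0.82 for Psmb11 to Psmb5, and the last was 0.98 without replicate 1 of each genotype. The exact two-sided permutation p-values were 0.8 for Psmb8 to Psmb5 and 0.4 for each of the other 3 pairs (0.8 and 0.533 adjusted over the 4 pairs), where 3 against 3 libraries cannot give less than 0.1. The groups overlapped in all 4 pairs.

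**Figure D4:**
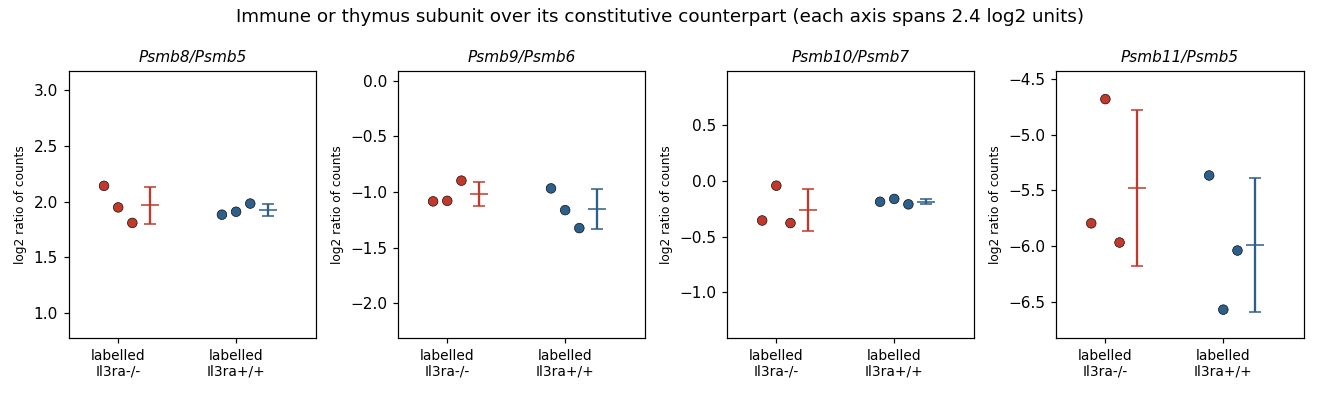
Log2 ratio of the counts of each immune or thymus subunit to its constitutive counterpart, labelled Il3ra-/- (red) left of labelled Il3ra+/+ (blue). Points are libraries 1 to 3 from left to right and bars the mean with SD (n = 3 each), and the 4 axes span the same number of log2 units. The widest spread within a genotype is that of Psmb11 to Psmb5, and the genotypes overlap in every panel.

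Levels of different genes were compared per length, as CPM per kb. With the union of annotated exons as the length, the immune subunits made up 42.7%, 42.4% and 41.0% of the summed level of the 6 constitutive and immune catalytic genes in the labelled knockout, against 42.5%, 41.7% and 41.2% in wildtype. With the principal transcript as the length the shares averaged 43.1% ± 0.54 in the labelled knockout and 42.7% ± 0.92 in wildtype (SD, n = 3 each). The order of the genes depended on the length. On the principal transcript Psmb6 stood first, at 135 ± 10.2 CPM per kb in the labelled knockout and 122 ± 10.6 in wildtype, followed by Psmb8 at 98.4 ± 5.17 and 89.4 ± 9.19 CPM per kb (SD, n = 3 each). Psmb5 (46.0 ± 7.64 in the labelled knockout and 42.7 ± 5.36 in wildtype), Psmb7 (40.3 ± 5.35 and 37.1 ± 5.27) and Psmb9 (39.5 ± 5.81 and 32.8 ± 6.002 CPM per kb) followed. Psmb10 was the lowest of the 6, at 29.8 ± 3.42 CPM per kb in the labelled knockout and 28.8 ± 3.98 in wildtype. On the union of exons Psmb6 (57.5 and 52.2 CPM per kb), Psmb8 (47.4 and 43.0) and Psmb5 (46.0 and 42.7) stood first, and Psmb9 (14.6 and 12.1) and Psmb7 (13.7 and 12.6) stood last. Psmb11 was at 0.234 ± 0.127 CPM per kb of principal transcript in the labelled knockout and 0.154 ± 0.085 in wildtype.

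The alpha rings are built from Psma1 to Psma7, in equal copies in the protein. All 7 were fitted higher in the labelled knockout, with a median log2 fold of 0.17, and none passed. Their transcript levels per kb of principal transcript ranged from 33.7 (Psma3) to 120.0 CPM per kb (Psma7), a ratio of 3.56. Psma7 had 101, 117 and 131 CPM in the labelled knockout, against 119, 89.2 and 102 CPM in wildtype. Psma3 did not overlap, with 102, 98.0 and 103 CPM in the labelled knockout, against 89.5, 87.2 and 96.4 CPM in wildtype (fold 1.11, edgeR adjusted p = 0.461). Psma6 had the highest level per kb on the union of exons, 99.3 over all libraries, and a fold of 1.09. Psma8, the alpha subunit of the testis proteasome, had 9, 31 and 33 counts in the labelled knockout, against 9, 3 and 16 counts in wildtype, and was the lowest of the 50 genes per kb (0.142 on the principal transcript). Its fold of 2.19 rested on few counts and did not pass (edgeR adjusted p = 0.405).

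The structural beta subunits Psmb1, Psmb2, Psmb3 and Psmb4, which hold the ring but do not cut, had folds of 1.08, 1.03, 0.9997 and 1.07. Psmb3 had 66.4, 82.7 and 88.1 CPM in the labelled knockout, against 92.7, 71.3 and 73.4 CPM in wildtype, and had a fold of 1.18 without replicate 1 of each genotype (edgeR adjusted p = 0.140).

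In the regulatory cap all 6 ATPases (Psmc1 to Psmc6) were fitted higher in the labelled knockout, with a median log2 fold of 0.12. Psmc2 had 64.4, 63.6 and 71.9 CPM in the labelled knockout, against 59.7, 59.6 and 60.0 CPM in wildtype, without overlap (fold 1.12, edgeR adjusted p = 0.453). Psmc3 and Psmc5, among the 3 highest genes per kb of exon at 62.7 and 62.8 CPM per kb, had folds of 1.06 and 1.06. Of the 11 non-ATPase cap subunits 7 were fitted higher and 4 lower, with a median log2 fold of 0.11. The 4 fitted lower were Psmd4, a ubiquitin receptor, Psmd11, Psmd3 and Psmd8, at folds of 0.929, 0.970, 0.973 and 0.988. Without replicate 1 of each genotype 3 of these turned to higher, with folds of 1.02 for Psmd4, 1.04 for Psmd3 and 1.09 for Psmd8. Psmd2, a receptor for shuttle factors, had 163, 176 and 187 CPM in the labelled knockout, against 170.0, 155 and 162 CPM in wildtype. Psmd6 (fold 1.04) lies 225 kb from Il3ra on chromosome 14, which holds 6 of the 50 genes, and had 53.0, 54.9 and 57.2 CPM in the labelled knockout, against 53.5, 49.7 and 55.7 CPM in wildtype.

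The activators and the inhibitor overlapped between the genotypes, apart from Psme2b. Psme1 and Psme2, which form the interferon-inducible activator, had folds of 1.04 and 1.08, with Psme1 at 119.8, 127 and 119 CPM in the labelled knockout, against 117, 111 and 123 CPM in wildtype. Psme3, a nuclear activator of the same family, had 156, 152 and 161 CPM in the labelled knockout, against 151, 151 and 167 CPM in wildtype, a fold of 1.003 whose sign turned under another scaling. Psme4, a large nuclear activator, had a fold of 0.963. Psme2b, a near-copy of Psme2, had 2.91, 3.34 and 3.33 CPM in the labelled knockout, against 2.88, 2.56 and 2.77 CPM in wildtype. Its reads may belong in part to Psme2, since the labels do not say how reads with several matches were handled. Psme2b also overlaps 9930111J21Rik1, a gene on the same strand that averaged 788 counts. Psmf1, the inhibitor, had 30.2, 30.2 and 30.9 CPM in the labelled knockout, against 34.4, 30.2 and 28.4 CPM in wildtype.

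The 7 assembly chaperones were all fitted higher, by a median log2 fold of 0.11, and none passed. Psmg1 and Psmg2, which pair to build the alpha ring, had folds of 1.08 and 1.17, and Psmg2 did not overlap, with 24.7, 22.2 and 22.7 CPM in the labelled knockout, against 21.8, 19.1 and 18.5 CPM in wildtype (edgeR adjusted p = 0.364). The partners Psmg3 and Psmg4 had folds of 1.15 and 1.12 at 5.41 to 9.83 CPM. The cap chaperones Psmd5, Psmd9 and Psmd10 had folds of 1.04, 1.03 and 1.04. Psmc3ip, which the symbol rule also takes in, encodes a recombination factor and no proteasome subunit, and had a fold of 1.18 (edgeR adjusted p = 0.444).

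The level of the proteasome genes also differed between libraries of a genotype. Labelled-knockout replicate 3 was the highest library for 32 of the 50 genes, and wildtype replicate 2 the lowest for 32. Shares of all tested genes highest or lowest in these 2 libraries were not counted, so these counts have no background beside them. The median over the 50 genes of log2 CPM, relative to each gene's mean, was -0.04, 0.05 and 0.15 in the labelled knockout, against 0.04, -0.16 and -0.06 in wildtype. The alpha subunits ran from -0.24 in wildtype replicate 2 to 0.26 in labelled-knockout replicate 3. The structural beta subunits of labelled-knockout replicate 1 (-0.15) lay below those of all wildtype libraries (0.13, -0.13 and -0.08). A list of 12 cell division genes was chosen with earlier results of these data known. Its mean deviations were 0.39, 0.0011 and 0.38 in the labelled knockout, against -0.20, -0.44 and -0.13 in wildtype. The list and the proteasome genes were both high in labelled-knockout replicate 3 and lowest in wildtype replicate 2. In labelled-knockout replicate 1 the list was high and the proteasome genes were not. All 12 had an unadjusted p under 0.05, all higher, against 8.01% of all tested genes, and 0 were past the edgeR adjusted threshold, against 0.091% (median log2 fold 0.54). A list so chosen cannot serve as a test against these shares. The 4 of smallest p were Cdc6, which loads replication helicases (log2 fold 0.65), Ccnb1, the mitotic cyclin B (0.64), Mcm6, a helicase subunit (0.47), and Ccna2, cyclin A (0.58). Of 11 thymocyte markers 5 had an unadjusted p under 0.05, all lower, against 6.6% of all tested genes, with 0 past the adjusted threshold and a median log2 fold of -0.20. The erythroid markers summed to 1.85, 12.6 and 19.1 CPM in the labelled knockout, against 4.86, 32.8 and 23.2 CPM in wildtype, and those of fibroblasts and endothelium, mostly Pecam1, to 116 to 122 CPM in the labelled knockout and 118 to 121 CPM in wildtype. Among the latter, Cdh5 had 0.677, 0.810 and 2.96 CPM in the labelled knockout, against 0.369, 0.450 and 0.444 CPM in wildtype (fold 3.51, edgeR adjusted p = 0.195). Pecam1 and Col1a1 were fitted lower, at folds of 0.997 and 0.933. The part of these genes and cells in the level of the proteasome genes was not tested.

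**Figure D5:**
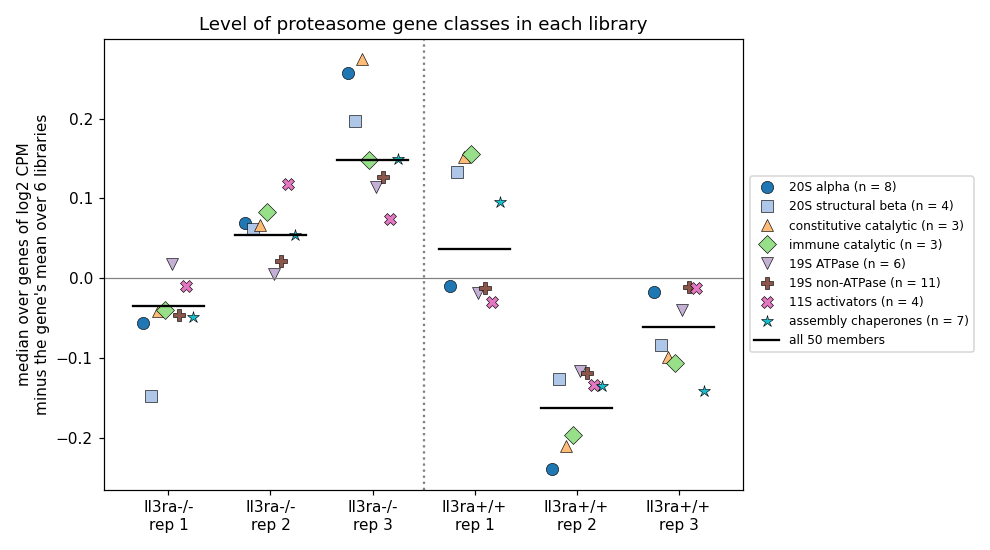
Level of 8 proteasome gene classes in each library, as the median over genes of log2 CPM minus the mean of the gene over 6 libraries. Symbols are classes, black lines are all 50 genes, and the dotted line parts labelled Il3ra-/- (left) from labelled Il3ra+/+ (right). All 8 classes lie above 0 in labelled-knockout replicate 3 and below 0 in wildtype replicate 2.

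Genes that serve the proteasome were read from lists chosen with earlier results of these data known. Of 16 partner proteins tested, 0 passed over all genes and 3 had an unadjusted p under 0.05, all higher, against 8.01% of all tested genes, with a median log2 fold of 0.11. Txnl1, a redox protein of the cap, had 58.7, 58.9 and 64.8 CPM in the labelled knockout, against 51.03, 45.5 and 53.2 CPM in wildtype (edgeR adjusted p = 0.235). Uchl5, a deubiquitinase of the cap, had 51.8, 44.5 and 49.1 CPM in the labelled knockout, against 34.6, 38.4 and 46.4 CPM in wildtype (edgeR adjusted p = 0.308). Rad23b, a shuttle that brings ubiquitin-marked proteins, had 134, 128 and 144 CPM in the labelled knockout, against 115, 109 and 125 CPM in wildtype (edgeR adjusted p = 0.322). The genotypes did not overlap for Txnl1 and Rad23b and overlapped for Uchl5. Sem1, a small subunit of the cap, came next by p, with a log2 fold of 0.15.

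Among 9 regulators of proteasome transcription 3 were fitted higher and 0 had an unadjusted p under 0.05 (median log2 fold -0.01). Nfe2l1, the factor that raises proteasome genes when the protease is impaired, had 63.3, 74.0 and 67.0 CPM in the labelled knockout, against 60.3, 70.1 and 72.5 CPM in wildtype. The 4 of smallest p were Ngly1, which activates Nfe2l1 by removing its sugars (log2 fold 0.11), Stat3 (-0.07), the protease Ddi2 (-0.07) and the repressor Bach1 (-0.06).

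Of 12 regulators and neighbours of the immune subunits 5 were fitted higher, and 2 had an unadjusted p under 0.05, both lower, against 6.6% of all tested genes, with a median log2 fold of -0.10. Irf9, the DNA-binding part of the interferon-activated complex, had 41.6, 46.5 and 37.1 CPM in the labelled knockout, against 45.2, 61.1 and 56.7 CPM in wildtype (edgeR adjusted p = 0.226). Stat2, its partner, had 93.3, 81.1 and 69.2 CPM in the labelled knockout, against 93.1, 113 and 100.4 CPM in wildtype (edgeR adjusted p = 0.253). In both, wildtype replicate 1 lay within the range of the labelled knockout. Irf2 (log2 fold -0.14) and Irf8 (0.60) were next by p, and Irf8, a factor of dendritic cells and B cells, had 17.2, 31.6 and 53.9 CPM in the labelled knockout, against 22.7, 22.3 and 23.0 CPM in wildtype.

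Some counts can hold reads of other genes. Of the 50 genes 10 overlap a gene that averaged at least 100 counts, among them Psmb9 with Tap1, Psmb7 with the pseudogene Gm13586 and Psmd13 with the pseudogene Gm15542. Psmd13 and Gm15542 lie on the same strand, where no strand setting would part them. For genes on opposite strands, the labels do not give the strand setting of the counting. Reads of such overlapping genes cannot be told apart. The 4 pseudogenes whose symbols match the rule held 13, 7, 7 and 0 counts over all 6 libraries and were left out as not protein-coding.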

How the data were processed

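RNA of thymocytes was made into stranded mRNA libraries (TruSeq), per the labels' protocols, and handled with STAR 2.5.4b and featureCounts on GRCm38, per the submitters' processing notes. Not given in the sources used are the annotation release, the strand setting and the treatment of reads with several matches. The values deposited by the authors are raw counts for each Ensembl gene, 1 column per library, per the file headers. All 55536 identifiers matched GENCODE M21, which gave symbols, types and lengths.

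Libraries were grouped by the labels. Genes were filtered with filterByExpr, scaled by TMM and compared with edgeR 4.0.16 in R 4.3.3 (quasi-likelihood test, robust fit, no covariate), with Benjamini-Hochberg adjustment over all 18690 genes and a threshold of 0.05. Intervals of folds are 95%. The fit was tested on simulated data. Log2 ratios had 0.5 counts added. A floor of 3 counts was used for markers and covers counting error only. Depth ran from 55747682 to 82684219 counts, at which 3 counts are 0.0363 to 0.0538 CPM. Alternatives were DESeq2 1.42.0, limma-voom 3.58.1, RLE and upper quartile scaling, other filters, a replicate block, other lengths and leaving out libraries.

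The members and lists were chosen with earlier results of these data known. Named in full were the catalytic, activator, inhibitor and Psmg genes, the 3 highest and 3 lowest per kb, the 10 of smallest p and up to 4 of each list. Psmb3, Psma7, Psmd2, Psmd4, Psmd6 and other genes named for a class were added after their values were seen.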

Additional observations from a re-analysis of the deposited data

How the results depend on the processing

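Of 376 refitted log2 folds of the named proteasome genes, 365 kept their direction and side of the threshold, 10 changed sign and 1 came past it. Proteasome genes past the edgeR threshold numbered 0 in every setting except without replicate 1 of each genotype, which gave 1, Psmb9 (log2 fold 0.51). That setting also gave 762 of all genes past it, 24 proteasome genes at an unadjusted p under 0.05 and a median log2 fold of 0.24. Genes past the threshold over the whole table numbered 17, against 602 with DESeq2, 840 with no filter, 10 at a mean of at least 1 CPM and 8 to 29 leaving out single libraries. Proteasome genes at an unadjusted p under 0.05 numbered 0 to 10 leaving out single libraries, with 0 without labelled-knockout replicate 3 or wildtype replicate 2 and 10 without wildtype replicate 1, and their median log2 fold 0.06 to 0.18. Single-library omission reversed Psmb5 (-0.017 to 0.23), Psmb10 (-0.025 to 0.16), Psme3 (-0.020 to 0.055) and Psmf1 (-0.087 to 0.054) and the Psmb8 to Psmb5 ratio (-0.046 to 0.12). Psme3 was -0.0035 with DESeq2 and with RLE scaling. Without replicate 1 of each genotype Psme3 was -0.021, Psmf1 0.059 and the Psmb8 to Psmb5 ratio -0.067. Over all 50 genes 6 turned in direction in that setting, 5 to higher and 1 to lower. The cause was not tested. The immune share was 43.2% in the labelled knockout and 43.1% in wildtype on the longest transcript, and 43.1% and 42.7% on the principal one, a length chosen after seeing the data. Correlations of deviations were -0.107, 0.029 and -0.115 for same-numbered libraries, against -0.078 to 0.163 for libraries of different number. They cannot show whether the replicate numbers pair the mice by litter or handling. Replicate 1 was the library high in Xist in each genotype. With the replicate block 9 genes of the whole table and 0 proteasome genes passed. Depth limits Psmb11 and Psma8, at 3 to 135 counts a library.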

Other observations

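Psmd6, a cap subunit, is the proteasome gene nearest to Il3ra, at 225 kb on chromosome 14, and Psmc6, Psmb5, Psmb11, Psme1 and Psme2 lie 31.0 to 41.2 Mb from it. The 6 genes had folds of 1.04 (Psmd6), 1.12 (Psmc6), 1.08 (Psmb5), 1.53 (Psmb11), 1.04 (Psme1) and 1.08 (Psme2), none past the edgeR threshold over all tested genes.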
